A study of Equus asinus with 2 samples.

Results

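Secreted WNT ligands, the Frizzled receptors that bind them and the secreted proteins that block or strengthen the signal were followed through the cells of the early donkey gonad. The set held 40 genes of the 38517 features in the count matrices. It comprised 15 ligands, 10 Frizzled receptors, 2 co-receptors, 5 secreted Frizzled-related inhibitors, 4 other secreted inhibitors, 2 R-spondins and 2 R-spondin receptors. Members were taken by gene symbol: 39 were deposited under their symbol, and WNT9A was deposited as a locus identifier that RefSeq pairs with that name.

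The study profiled single cells of fetal donkey (Equus asinus) gonads in 2 libraries, 1 per stage. The first library came from gonads together with mesonephros, the transient embryonic kidney beside the gonad, at 4 weeks of gestation. The second came from tissue labelled ovary at 8 weeks, from which surrounding fat and connective tissue had been trimmed. Both were taken from animals slaughtered at a commercial site, and the labels name neither genotype nor treatment, nor say how many fetuses entered each library. With 1 library per stage there was no replicate check and no test between stages. Intervals given here cover counting error only, and stage, fetus, dissection and library cannot be told apart.

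In the canonical pathway a WNT protein brings a Frizzled receptor together with LRP5 or LRP6, which stabilises beta-catenin and switches on target genes. SFRP proteins and WIF1 bind WNT outside the cell, DKK1 and DKK2 block the LRP co-receptors, and R-spondins acting through LGR receptors keep Frizzled on the surface. In the mammalian gonad this pathway is known for its part in ovarian development, and in the kidney for the formation of nephrons.

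The 4-week library held 8938 barcodes with 122341903 UMIs, counts of distinct captured transcripts, and the 8-week library 14593 barcodes with 155128130. Cells with at least 200 genes were kept, and 71.3% of them at 4 weeks and 79.0% at 8 weeks fell into a class by their marker genes. No marker used for classing was a member of the set. Both libraries carry the label germ cells, yet germ-cell-like cells made up 4.62% and 5.0% of the kept cells. The 8-week library labelled ovary held 718 Sertoli-like cells. In these the Sertoli marker list summed to 5003 UMIs per 1000000 UMIs of the class (CPM) and the pre-granulosa list to 65.5 CPM. The Sertoli list includes genes by which these cells were classed, so its high sum there follows from the classing. It also summed to 3097 CPM in 8-week steroidogenic-like cells. Mesonephric classes (proximal tubule, distal tubule, podocyte) held 1346 cells at 4 weeks and 1 cell at 8 weeks. The libraries shared 38 barcodes. A set of 7 classes had at least 50 cells in both libraries and were compared between stages.

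Of the 40 genes, 21 reached at least 20 CPM in a class of at least 50 cells, 18 lay between 1 and 20 CPM at their highest, and WNT3A stayed under 1 CPM in every class. Levels below are those of classes with at least 50 cells, 12 at 4 weeks and 7 at 8 weeks. The genes fell into a few patterns. Sertoli-like cells carried WNT6, FZD3 and FZD10. Stroma-like cells carried WNT5A, FZD1, FZD2, SFRP1 and FRZB. Germ-cell-like cells carried WNT2B, WNT3 and FZD7. At 8 weeks FZD4, FZD6, DKK1 and DKK2 had their highest class level in endothelial-like cells. CPM values are not corrected for transcript length, so levels were compared for the same gene between classes and never between genes.

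**Figure D1:**
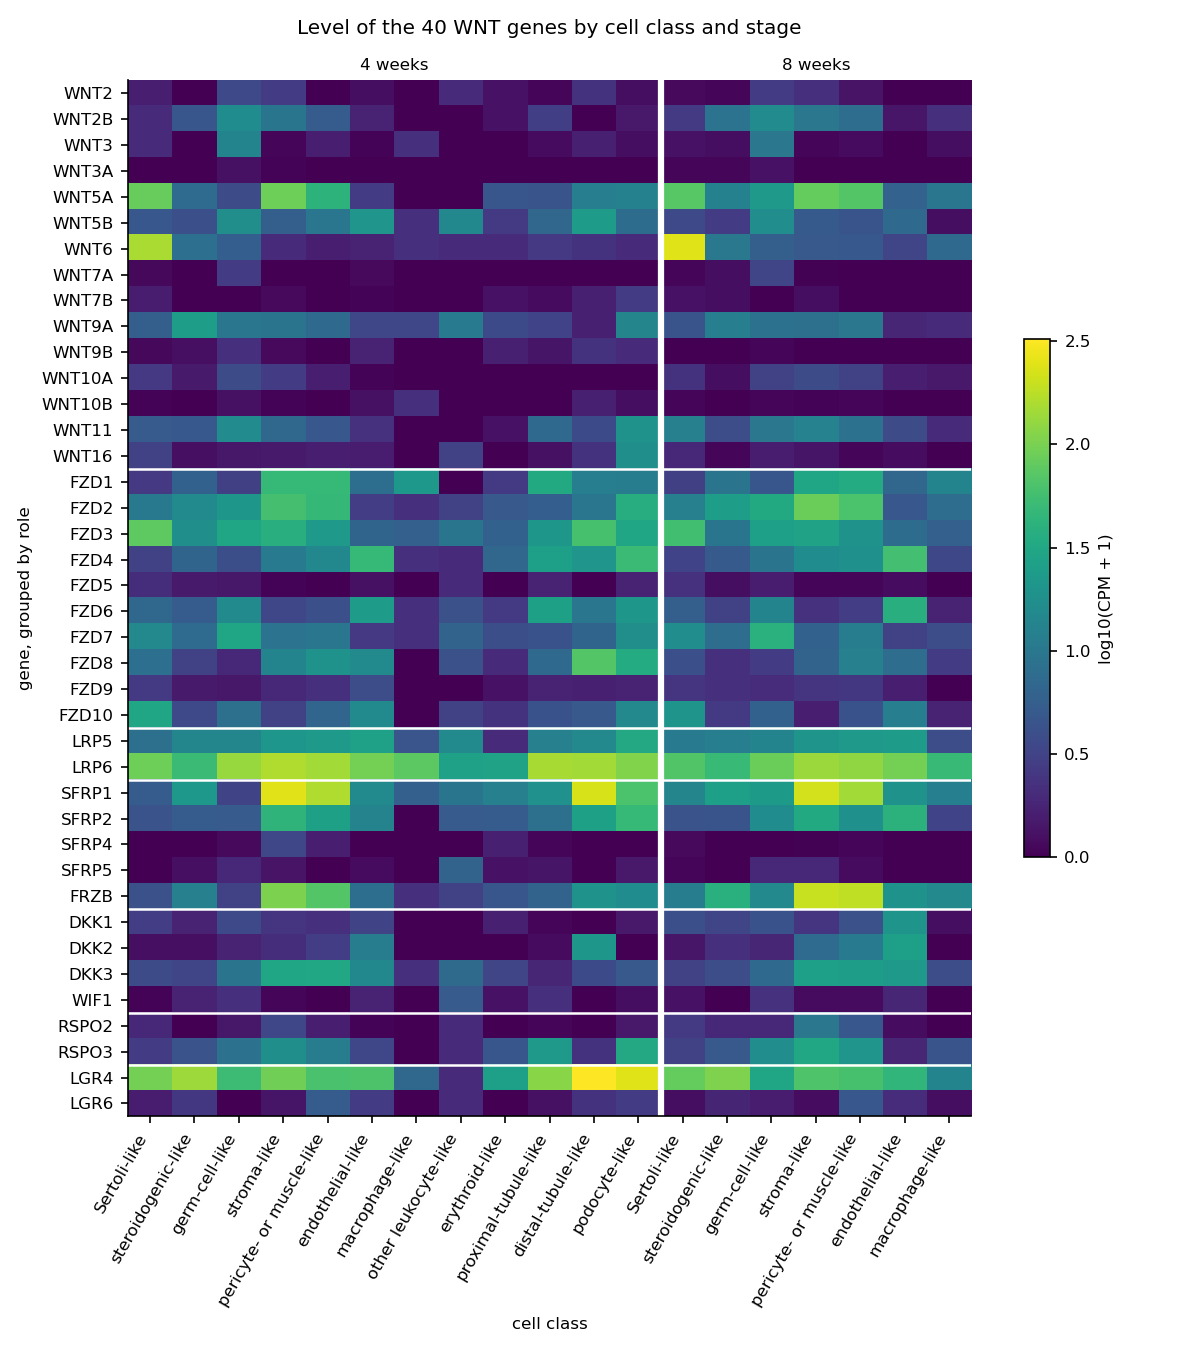
Level of each of the 40 genes (rows, grouped by role from ligands at the top to R-spondin receptors at the bottom) in every cell class with at least 50 cells (columns), at 4 weeks on the left and 8 weeks on the right. Colour is log10 of CPM plus 1, not corrected for transcript length. The WNT6 row is bright only in the Sertoli-like columns, with 153 CPM at 4 weeks and 243 at 8 weeks.

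Among the ligands, WNT6 was read mainly in a single class. It is a secreted ligand known from epithelia. In Sertoli-like cells, which are the supporting cells of the testis cord, WNT6 stood at 153 CPM (95% interval 146 to 159) at 4 weeks and 243 CPM (235 to 252) at 8 weeks. The next class, steroidogenic-like cells, stood at 7.30 and 9.07 CPM. Sertoli-like cells gave 80.3% of all WNT6 UMIs of the 4-week library and 61.5% of those at 8 weeks. After each cell was thinned to 1000 UMIs, 14.3% of 4-week and 23.3% of 8-week Sertoli-like cells had a WNT6 UMI. Macrophage-like cells, taken as a class that should lack the gene and so shows the level of free RNA, had a WNT6 UMI in 0 of 117 cells, which allows a share of up to 2.56%, and in 0.427% of 703 cells on the same scale. The unthinned shares were 78.5% and 74.7% in Sertoli-like cells, with median depths of 16241 and 12444 UMIs, and 0.787% and 1.89% in macrophage-like cells, with median depths of 5599 and 5008. The 8-week level was 1.60-fold the 4-week level (1.51 to 1.69), below the 2-fold limit used for a call. Within the 1 cluster that held Sertoli-like cells of both libraries in number (77 and 605 cells), WNT6 stood at 182 and 251 CPM.

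WNT5A, a ligand best known for beta-catenin-independent signalling, was high in both supporting and mesenchymal cells. At 4 weeks it stood at 90.2 CPM in stroma-like and 83.4 CPM in Sertoli-like cells, whose intervals overlapped, and at 40.6 CPM in pericyte- or muscle-like cells. At 8 weeks the values were 81.7, 70.6 and 68.6 CPM. Stroma-like and Sertoli-like levels both lay within 1.2-fold of their 4-week values. No other class at 4 weeks exceeded 11.7 CPM, the level of podocyte-like cells. Pericyte- or muscle-like cells scored for stroma markers as well as for their own (median scores 0.304 and 0.316 at 4 weeks, 0.380 and 0.342 at 8 weeks), so their values are not independent of the stroma class.

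Germ-cell-like cells held the highest levels of WNT2B, WNT3 and WNT7A in both libraries. WNT2B stood at 15.7 CPM at 4 weeks and 15.3 CPM at 8 weeks, against 8.54 and 8.88 CPM in stroma-like cells, the next class. WNT3, a canonical ligand, stood at 12.5 and 8.78 CPM, while no other class exceeded 1.21 CPM. These WNT3 values rest on 83 and 82 UMIs, and germ-cell-like cells gave 54.6% and 51.9% of each library's WNT3 UMIs. WNT7A was rare, with 1.81 and 2.36 CPM in germ-cell-like cells and at most 0.236 CPM in any other class. The gene order in RefSeq's donkey assembly (EquAss-T2T_v2) places WNT9B beside WNT3 and WNT10A beside WNT6. At 4 weeks WNT9B stood at 1.21 CPM in germ-cell-like cells and at most 1.35 CPM in any class. WNT10A stood at 1.60 CPM in 4-week and 1.34 CPM in 8-week Sertoli-like cells.

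WNT5B, a relative of WNT5A, was read in distal-tubule-like cells (22.9 CPM), endothelial-like cells (19.5 CPM), germ-cell-like cells (16.4 CPM) and other leukocyte-like cells (13.7 CPM) at 4 weeks. Intervals of these 4 classes overlapped, and the distal-tubule-like value was 7.72 CPM with whole clusters as classes. At 8 weeks germ-cell-like cells stood at 15.9 CPM and endothelial-like cells at 6.21 CPM. WNT9A was highest in steroidogenic-like cells, the hormone-making cells, at 24.2 CPM at 4 weeks and 10.8 CPM at 8 weeks. The 8-week interval overlapped that of pericyte- or muscle-like cells, at 8.79 CPM. WNT11, which acts in kidney branching, was read in podocyte-like (18.5 CPM) and germ-cell-like cells (15.2 CPM) at 4 weeks and in stroma-like (11.9 CPM) and Sertoli-like cells (11.5 CPM) at 8 weeks. WNT16 stood at 16.7 CPM in podocyte-like cells, from 67 UMIs in 30 of 197 cells, and at most 2.11 CPM in the other classes of that library. WNT2, WNT7B, WNT9B, WNT10A and WNT10B did not exceed 2.87 CPM in any class.

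**Figure D2:**
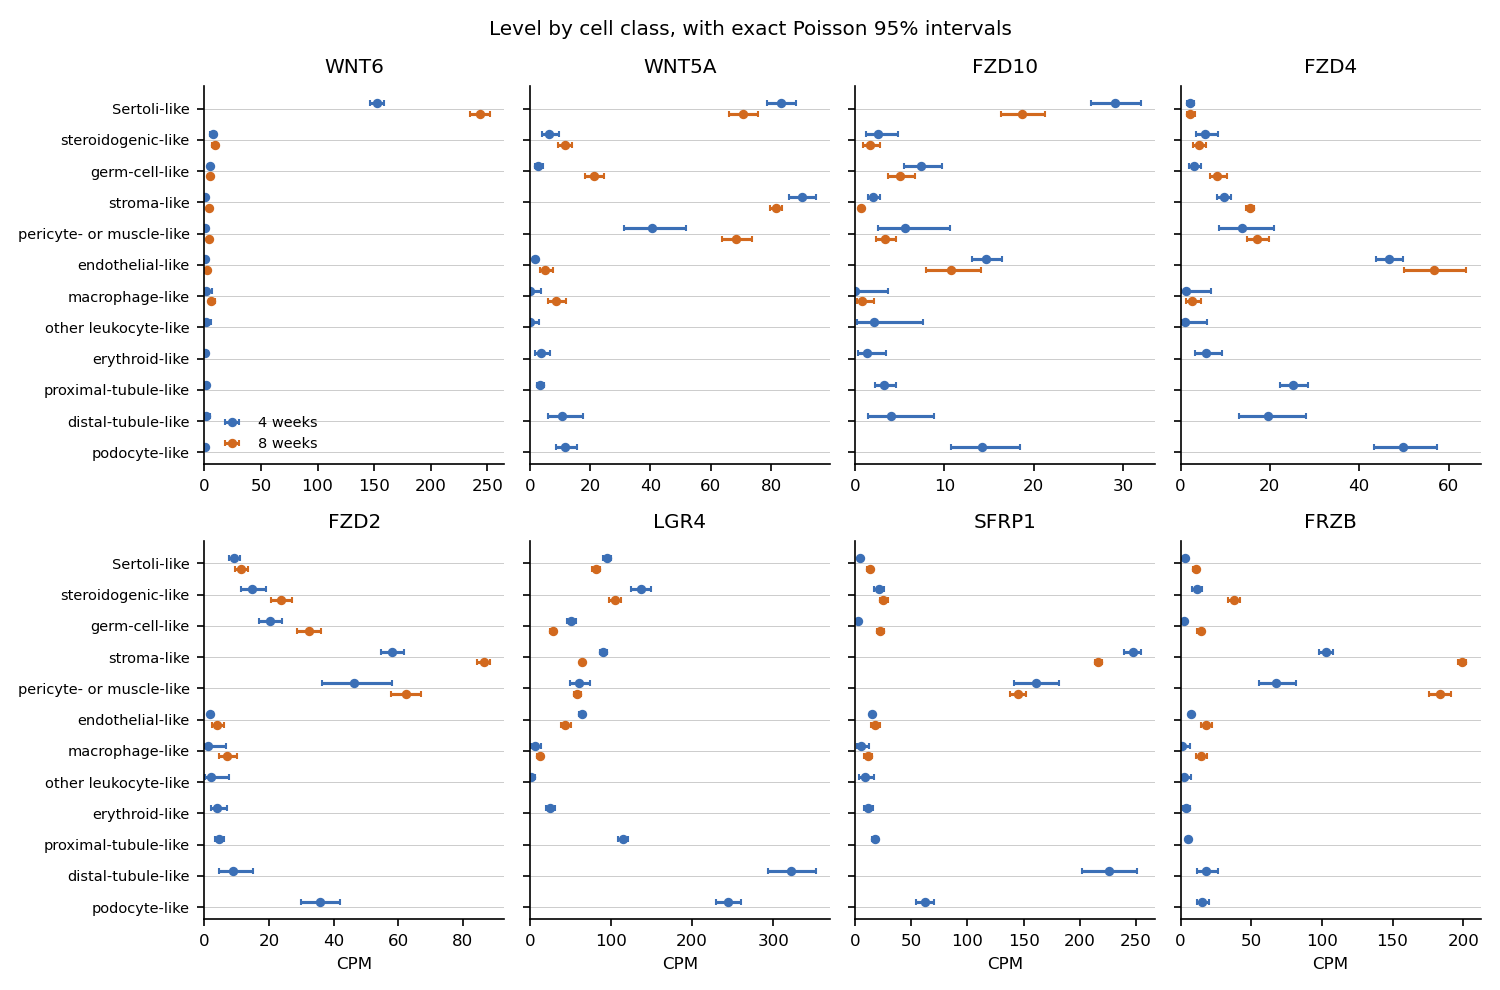
CPM (horizontal axis, starting at 0, with its own scale in each panel) of 8 genes in each cell class (vertical axis), at 4 weeks in blue and 8 weeks in orange. Points are class sums of 1 library and bars are exact Poisson 95% intervals, often narrower than the point. WNT6 and FZD10 are highest in Sertoli-like cells, FZD2, SFRP1 and FRZB in stroma-like cells, and LGR4 in distal-tubule-like and podocyte-like cells.

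The Frizzled receptors divided the cell classes between them, and 8 of 10 reached 20 CPM somewhere. FZD3 and FZD10 marked Sertoli-like cells. FZD3 stood there at 76.1 CPM at 4 weeks and 55.8 CPM at 8 weeks, above stroma-like cells at 36.8 and 26.8 CPM. The 4-week distal-tubule-like level of 59.3 CPM had an interval that overlapped the Sertoli-like one. FZD10 stood at 29.1 and 18.7 CPM in Sertoli-like cells, and endothelial-like cells came next with 14.7 and 10.7 CPM. FZD7, a receptor known from pluripotent cells, was highest in germ-cell-like cells at 28.7 and 39.1 CPM, and its next class stood at 16.2 and 16.0 CPM.

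FZD1 and FZD2 were highest in the mesenchymal classes. FZD2 stood at 58.2 CPM in stroma-like cells at 4 weeks and 86.5 CPM at 8 weeks, and at 46.2 and 62.4 CPM in pericyte- or muscle-like cells. FZD1 stood at 47.0 and 29.2 CPM in stroma-like cells and at 46.9 and 34.3 CPM in pericyte- or muscle-like cells. FZD2 was thus 1.49-fold higher in stroma-like cells at 8 weeks (1.39 to 1.59) and FZD1 was 1.61-fold lower (1.48 to 1.74), with neither past the 2-fold limit. Proximal-tubule-like cells also carried FZD1, at 32.7 CPM. FZD2 was also read in 4-week podocyte-like cells, at 35.7 CPM, and in 8-week germ-cell-like cells, at 32.3 CPM.

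FZD4, a receptor known from the growth of retinal vessels, was highest in endothelial-like cells at 8 weeks with 56.7 CPM, and the next class stood at 17.2 CPM. At 4 weeks endothelial-like cells stood at 46.7 CPM, podocyte-like cells at 49.9 CPM and proximal-tubule-like cells at 25.2 CPM. FZD6 followed a similar order: 36.2 CPM in endothelial-like cells at 8 weeks, and 23.0 CPM there at 4 weeks beside 25.5 CPM in proximal-tubule-like and 20.2 CPM in podocyte-like cells. FZD8 was highest in distal-tubule-like cells at 67.4 CPM, from 100 UMIs in 27 of 209 cells, and podocyte-like cells stood at 34.2 CPM. Without the 6% of cells with the most UMIs the values were 36.3 and 29.0 CPM. With the required marker score doubled they were 28.1 CPM, from 6 UMIs, and 40.8 CPM, so the order turned. With whole clusters as classes distal-tubule-like cells stood at 17.6 CPM. FZD5 did not exceed 1.26 CPM and FZD9 did not exceed 2.89 CPM in any class.

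The co-receptors were spread more evenly. LRP6 lay between 26.4 CPM, in other leukocyte-like cells, and 161 CPM, in stroma-like cells, at 4 weeks. At 8 weeks it lay between 48.1 CPM in macrophage-like cells and 135 CPM in stroma-like cells. LRP5 reached 31.7 CPM in podocyte-like cells and 26.4 CPM in endothelial-like cells at 4 weeks, with overlapping intervals. At 8 weeks its highest level was 22.9 CPM in endothelial-like cells.

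The R-spondin receptor LGR4 was read in nearly all classes and was highest in mesonephric epithelium. At 4 weeks it stood at 322 CPM (294 to 352) in distal-tubule-like cells, 244 CPM (229 to 260) in podocyte-like cells and 115 CPM in proximal-tubule-like cells. Steroidogenic-like cells were the highest gonadal class, with 137 CPM at 4 weeks and 105 CPM at 8 weeks. Sertoli-like cells followed with 95.1 and 81.4 CPM. Macrophage-like cells stood at 6.06 and 12.6 CPM. After thinning, 18.4% of distal-tubule-like, 21.4% of podocyte-like and 16.0% of 4-week steroidogenic-like cells had an LGR4 UMI, against none of 117 macrophage-like cells, which allows a share of up to 2.56%. LGR6 did not exceed 4.37 CPM, its level in 4-week pericyte- or muscle-like cells.

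**Figure D3:**
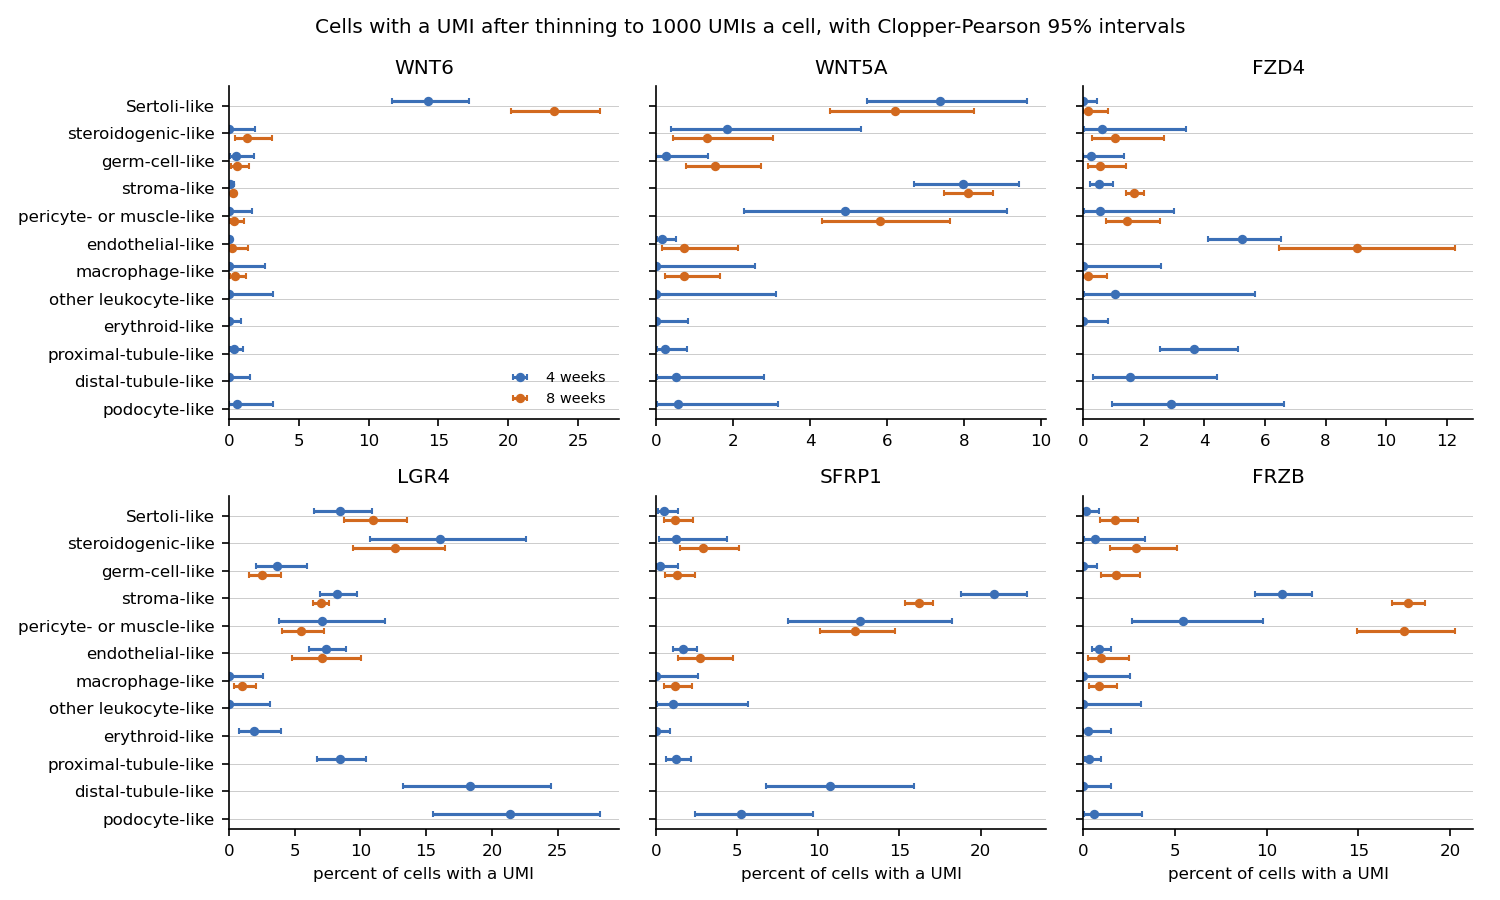
Percent of cells with at least 1 UMI of a gene (horizontal axis, starting at 0) in each cell class (vertical axis) after every cell was thinned to 1000 UMIs, at 4 weeks in blue and 8 weeks in orange. Points are shares within 1 library and bars are exact Clopper-Pearson 95% intervals. WNT6 was read in 23.3% of 8-week Sertoli-like cells, and FRZB in 17.7% of 8-week stroma-like cells.

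The secreted inhibitors SFRP1 and FRZB bind WNT proteins in the extracellular space. Both were highest in stroma-like cells. SFRP1 stood there at 247 CPM at 4 weeks and 216 CPM at 8 weeks, and at 161 and 145 CPM in pericyte- or muscle-like cells. FRZB stood at 103 CPM in stroma-like cells at 4 weeks and 199 CPM at 8 weeks, and at 67.5 and 183 CPM in pericyte- or muscle-like cells. Stroma-like cells gave 52.2% of the 4-week and 81.1% of the 8-week library's SFRP1 UMIs, while they made up 17.8% and 51.8% of the kept cells.

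SFRP1 was also high in distal-tubule-like cells at 226 CPM (202 to 251), from 335 UMIs in 64 of 209 cells. In the same cells FRZB stood at 18.2 CPM and the stroma marker list at 96.3 CPM, against 6253 CPM in stroma-like cells. The SFRP1 level in this class lay between 152 and 468 CPM under the other ways of choosing cells. In Sertoli-like cells SFRP1 stood at only 4.38 and 12.8 CPM.

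SFRP2 was shared among podocyte-like (47.4 CPM), stroma-like (42.0 CPM), pericyte- or muscle-like (25.6 CPM) and distal-tubule-like cells (25.6 CPM) at 4 weeks. The podocyte-like value fell to 9.38 CPM when the marker score required of a cell was doubled. At 8 weeks endothelial-like cells were highest with 39.6 CPM, followed by stroma-like cells with 32.6 CPM. DKK3, whose action on WNT is less settled, stood at 29.1 and 25.1 CPM in stroma-like cells, 30.6 and 24.2 CPM in pericyte- or muscle-like cells and 13.9 and 21.2 CPM in endothelial-like cells. SFRP4, SFRP5 and WIF1 did not exceed 5.28 CPM in any class.

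DKK2 and DKK1, both blockers of LRP co-receptors, had their highest 8-week class level in endothelial-like cells. DKK2 stood there at 25.3 CPM at 8 weeks and 10.4 CPM at 4 weeks. The more numerous stroma-like cells stood at 6.55 CPM at 8 weeks and gave 59.5% of that library's DKK2 UMIs, against 13.2% from endothelial-like cells. At 4 weeks its highest level, 20.2 CPM in distal-tubule-like cells, came from 30 UMIs in 6 cells and fell to 0 of 44 cells when the required marker score was doubled. DKK1 stood at 18.8 CPM in 8-week endothelial-like cells and at most 3.32 CPM in the other classes of that library, where stroma-like cells gave 28.1% and endothelial-like cells 22.1% of its UMIs.

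RSPO3, an R-spondin with a known part in blood vessels and kidney stroma, was read in podocyte-like (31.7 CPM), proximal-tubule-like (21.9 CPM) and stroma-like cells (16.7 CPM) at 4 weeks. At 8 weeks stroma-like cells stood at 30.6 CPM, pericyte- or muscle-like cells at 19.6 CPM and germ-cell-like cells at 16.1 CPM. RSPO2 was read mainly in stroma-like cells, at 2.45 CPM at 4 weeks and 8.88 CPM at 8 weeks, which gave 57.3% and 78.5% of its UMIs.

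Each class was also set against all other classed cells of its library. Genes at least 2-fold higher (0.5 UMI added to each count) were counted, with at least 10 UMIs over all classed cells. Stroma-like cells had 13 of 39 members higher at 4 weeks, where 12.2% of all features were, and 12 of 36 at 8 weeks, where 11.7% were. Podocyte-like cells had 12 of 39, against 9.84% of all features, although 4 of these 12 (WNT7B, WNT9B, WNT10B and LGR6) stood under 2 CPM there. Sertoli-like cells had 7 of 39 against 10.8% at 4 weeks and 6 of 36 against 11.7% at 8 weeks. Endothelial-like cells had 7 of 39 against 11.9% and 6 of 36 against 13.8%. Germ-cell-like cells had 11 of 39 against 19.8% and 9 of 36 against 23%, and proximal-tubule-like cells 4 of 39 against 13.2%. Distal-tubule-like cells had 9 of 39 against 15.3%, pericyte- or muscle-like cells 6 of 39 against 13.8% and 2 of 36 against 5.98%, and other leukocyte-like cells 6 of 39 against 21%. Steroidogenic-like cells had 1 of 39 against 10.6% and 0 of 36 against 9.17%, and erythroid-like cells 0 of 39 against 5.73%. Macrophage-like cells had 3 of 39 against 23.8% and 0 of 36 against 13.1%. With 0.5 UMI added, a gene without UMIs in a small class can pass, among members and all features alike. Of the 3 in macrophage-like cells, WNT7A and WNT7B had no UMI there and WNT10B had 1. WNT7A and WNT10B had none in other leukocyte-like cells, where FZD5 and RSPO2 passed at 1.06 CPM. In distal-tubule-like cells WNT2, WNT7B, WNT9B and WNT10B passed at under 2 CPM. In 4-week germ-cell-like cells WNT7A, WNT9B, WNT10B, SFRP5 and WIF1 passed at under 2 CPM. As percentages, the members stood at 33.3% and 33.3% for stroma-like, 30.8% for podocyte-like, 28.2% and 25% for germ-cell-like and 10.3% for proximal-tubule-like cells.

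Stage was compared within each of the 7 shared classes. A gene was called where its CPM differed at least 2-fold between libraries (0.5 UMI added to each count) with at least 10 UMIs over both. Of 35 members tested in stroma-like cells, 4 were higher at 8 weeks (6.1% of all features) and 3 lower (12.4% of all features). In Sertoli-like cells 3 of 32 were higher (6.59% of all features) and 5 lower (13.4%). In steroidogenic-like cells 4 of 26 were higher (6.36%) and 3 lower (10.5%). In germ-cell-like cells 7 of 32 were higher (11.9%) and none lower (10%). In endothelial-like cells 8 of 29 were higher (8.82%) and 6 lower (13.9%). In macrophage-like cells 6 of 14 were higher (9.45%) and none lower (12.2%). In pericyte- or muscle-like cells 6 of 28 were higher (8.52%) and 1 lower (9.21%).

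The median log2 ratio of 8 over 4 weeks among the members tested lay near that of all features in most classes. It was −0.18 in stroma-like cells, where all features gave −0.11, and −0.22 in Sertoli-like cells, where all features gave −0.18. Steroidogenic-like cells gave 0.02 for the members and −0.14 for all features, germ-cell-like cells 0.06 and 0.00, and pericyte- or muscle-like cells 0.10 and −0.04. Endothelial-like cells gave 0.26 and −0.07. The widest gap was in macrophage-like cells, at 0.85 against −0.12. The 6 members higher in macrophage-like cells (WNT5A, WNT6, FZD2, SFRP1, FRZB and RSPO3) were at 8 weeks highest in stroma-like or Sertoli-like cells. Their 4-week counts were 0 to 4 UMIs. The counting intervals of WNT6, FZD2 and SFRP1 included no difference, and RSPO3, with 0 and 14 UMIs, had a lower bound that included no difference. The stroma marker list in macrophage-like cells stood at 131 CPM at 4 weeks and 570 CPM at 8 weeks, and the Sertoli list at 35.2 and 130 CPM. These lists moved with gains of stroma genes in other classes too, and their part in those gains was not tested.

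**Figure D4:**
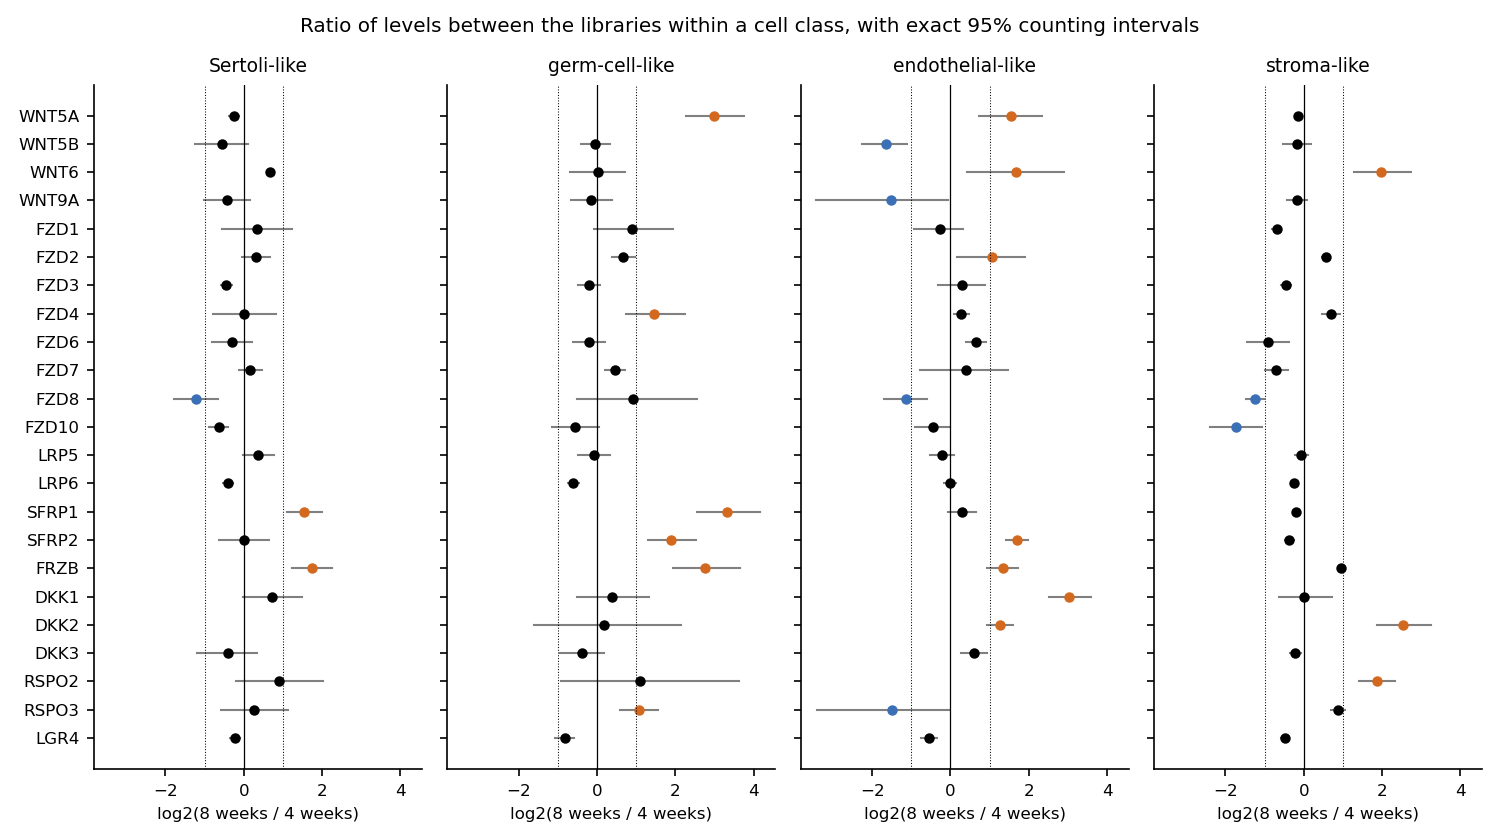
Log2 ratio of the 8-week over the 4-week level (horizontal axis, 0 means no difference, dotted lines mark 2-fold) of 23 genes in 4 cell classes: the 21 genes that reached 20 CPM, plus DKK1 and RSPO2, added after their values were seen. Points compare 1 library with 1 library, grey bars are exact 95% counting intervals, orange and blue points passed the 2-fold limit higher or lower, and genes under 10 UMIs or absent from a library are not drawn. SFRP1 in germ-cell-like cells and DKK1 in endothelial-like cells lie farthest to the right of the genes drawn.

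In stroma-like cells the 2-fold limit was passed by WNT6 (1.03 to 4.0 CPM), SFRP5 (0.342 to 0.947 CPM), DKK2 (1.14 to 6.55 CPM) and RSPO2 (2.45 to 8.88 CPM) upward. FZD8 (12.6 to 5.31 CPM), FZD10 (2.05 to 0.615 CPM) and SFRP4 (2.45 to 0.0369 CPM) passed it downward. None of these reached 20 CPM. They are named because the counts are small, after their values were seen. SFRP4 was read in 43 UMIs at 4 weeks and 3 at 8 weeks, a 66.4-fold difference with a counting interval of 21.2 to 334. Only 2 of those 43 UMIs and none of the 3 lay in the 1 cluster described next. FRZB, an abundant member, was 1.94-fold higher at 8 weeks (1.85 to 2.04), and RSPO3 was 1.83-fold higher (1.62 to 2.07). Several clusters held stroma-like cells of both libraries, in unlike proportions, such as 277 and 1340 cells in 1 cluster and 165 and 1671 in another. Only the cluster with the largest count in its smaller library, 817 and 568 cells, was read. Within that cluster FRZB stood at 110 and 192 CPM and RSPO3 at 11.3 and 57.1 CPM, which put RSPO3 past the limit. There, 3 and 85 UMIs of DKK2 gave 0.313 and 9.85 CPM (log2 ratio 4.76), and WNT6 levels were 0.835 and 3.71 CPM. When the required marker score was doubled, DKK2 and WNT6 fell below the limit, to log2 ratios of 0.24 and 0.63, and RSPO3 turned to −0.86. In the 1 cluster read FZD8 stood at 14.1 and 11.1 CPM, and its counting interval included no difference.

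In Sertoli-like cells WNT11 (4.25 to 11.5 CPM), SFRP1 (4.38 to 12.8 CPM) and FRZB (3.20 to 10.7 CPM) were higher at 8 weeks. WNT2, WNT3, WNT16, FZD8 and LGR6 were lower, all from at most 7.17 CPM, and the counting intervals of WNT2, WNT3 and LGR6 included no difference. The 8-week values of SFRP1 and FRZB lay near those of macrophage-like cells (11.1 and 14.3 CPM). Sertoli-like cells of the 2 libraries fell largely into different clusters: 552 of the 4-week cells and 48 of the 8-week cells lay in 1 cluster, and 77 and 605 in another. In the second, SFRP1 and FRZB had 1 UMI each at 4 weeks, and WNT11 had 2 UMIs, at 5.05 and 11.2 CPM, where its log2 ratio of 0.84 after 0.5 UMI was added fell short of the limit and the interval of the ratio ran from 0.60 to 18.6.

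In germ-cell-like cells WNT5A stood at 2.72 CPM (18 UMIs) at 4 weeks and 21.3 CPM (199 UMIs) at 8 weeks, a 7.85-fold difference (4.84 to 13.5). SFRP1 stood at 2.26 and 22.4 CPM, a 9.89-fold difference (5.86 to 18.0). FZD4, FZD9, SFRP2, FRZB and RSPO3 were also higher, none reaching 20 CPM at 8 weeks, and the counting interval of FZD9 (3 and 10 UMIs) included no difference. Macrophage-like cells at 8 weeks held 8.63 CPM of WNT5A, 11.1 CPM of SFRP1, 14.3 CPM of FRZB and 2.22 CPM of SFRP2. The 8-week germ-cell-like level was higher than this for WNT5A, SFRP1 and SFRP2 (15.7 CPM) and near it for FRZB (14.1 CPM). The stroma marker list stood at 277 CPM in 4-week and 452 CPM in 8-week germ-cell-like cells. The Sertoli list stood at 228 and 320 CPM there, and at 130 CPM in 8-week macrophage-like cells. What RNA of other cells added to these differences was not tested. When cells were classed after thinning to equal depth, the WNT5A ratio fell from a log2 of 2.94 to 0.94, below the limit, whereas SFRP1 remained past it. FZD4 and RSPO3 fell below the limit as well, to 0.72 and −0.04.

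Endothelial-like cells had the largest count of members past the limit, and their make-up differed most between libraries. Of the 1392 cells at 4 weeks, 1118 lay in a cluster that held 1 of the 429 cells at 8 weeks. SFRP2 stood at 12.2 CPM at 4 weeks and 39.6 CPM at 8 weeks, a 3.24-fold difference (2.66 to 3.93). DKK2 stood at 10.4 and 25.3 CPM, a 2.42-fold difference (1.92 to 3.05). DKK1 rose 8.19-fold (5.69 to 11.9), from 47 UMIs at 2.30 CPM to 88 UMIs at 18.8 CPM, and is named here after its value was seen. WNT5A, WNT6, WNT11, FZD2 and FRZB made up the rest of the 8 higher members, and WNT5B, WNT9A, WNT9B, FZD8, FZD9 and RSPO3 were lower.

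In the larger cluster that held endothelial-like cells of both libraries (211 and 376 cells), DKK2, SFRP2 and DKK1 had other values. A smaller one, with 47 and 52 cells, was not read. DKK2 stood there at 40 CPM at 4 weeks and 27.7 CPM at 8 weeks, so the direction turned. SFRP2 stood at 28.0 and 43.4 CPM, a gain below the limit. DKK1 stood at 8.04 and 20.7 CPM and kept a gain past the limit, and WNT5B at 16.5 and 5.87 CPM kept its loss. FZD6, 1.57-fold higher over the whole class, stood at 46.9 and 38.5 CPM in this cluster. Over the class, DKK2 and FRZB also fell below the limit, to log2 ratios of 0.74 and 0.75, when the required marker score was doubled.

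In steroidogenic-like cells WNT9A was 2.24-fold lower at 8 weeks (1.66 to 3.02), from 93 UMIs at 4 weeks and 92 in the larger library. FRZB was 3.30-fold higher (2.40 to 4.63), from 11.5 to 37.8 CPM, which is above the 14.3 CPM of 8-week macrophage-like cells. The cluster shared by these cells held 161 of the 170 at 4 weeks and 373 of the 455 at 8 weeks. Levels there were 24.5 and 10.7 CPM for WNT9A and 11.5 and 37.7 CPM for FRZB. They rest on nearly the same UMIs (92 and 90 for WNT9A, 43 and 316 for FRZB), so they are no separate check. The stroma marker list in this class stood at 356 CPM at 4 weeks and 978 CPM at 8 weeks, and its part in the FRZB difference was not tested. WNT2B, DKK1 and DKK2 were also higher and FZD3 and FZD6 lower, none of them reaching 20 CPM. The counting intervals of DKK1 (3 and 20 UMIs) and DKK2 (1 and 10 UMIs) included no difference. In pericyte- or muscle-like cells FRZB was 2.72-fold higher (2.24 to 3.33), from 67.5 to 183 CPM. Within the cluster that held 124 and 560 of these cells it stood at 50.2 and 160 CPM. FRZB was the one member higher in 6 of the 7 classes by the 2-fold limit, and it was 1.94-fold higher in the seventh, stroma-like cells. Over the whole library FRZB stood at 24.9 and 133 CPM. Its 8-week levels in Sertoli-like (10.7 CPM) and germ-cell-like cells lay near that of macrophage-like cells. The endothelial-like ratio fell below the limit with the required marker score doubled. What stroma RNA added to these differences was not tested.

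The stroma-like class was not uniform in R-spondins and inhibitors. It was divided by UMIs of RXFP2, the receptor for the testis hormone INSL3, and MSC, a mesenchymal transcription factor. The division was chosen after values of these data were seen and is given as a description. At 8 weeks 1197 stroma-like cells had RXFP2 without MSC and 2661 had MSC without RXFP2, and at 4 weeks 499 and 118. At 8 weeks RSPO3 stood at 109 CPM (102 to 115) in RXFP2-positive and 6.12 CPM (5.37 to 6.96) in MSC-positive cells, a 17.7-fold difference (15.4 to 20.5). RSPO2 stood at 29.0 and 2.1 CPM, a 13.8-fold difference (10.8 to 17.9). DKK2 stood at 24.7 and 1.30 CPM, a 19.0-fold difference (14.0 to 26.3). Cells with neither gene lay in between, at 30.3 CPM for RSPO3, 9.03 CPM for RSPO2 and 6.90 CPM for DKK2. Cells with both also lay in between, at 36.8, 11.3 and 6.81 CPM.

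WNT5A stood at 142 CPM in RXFP2-positive and 58.7 CPM in MSC-positive cells at 8 weeks, and SFRP2 at 58.1 and 22.9 CPM. WNT11 went the other way, at 4.05 and 16.2 CPM, a 3.99-fold difference (2.93 to 5.57). The abundant FRZB (210 and 199 CPM), SFRP1 (250 and 198 CPM) and FZD2 (77.5 and 89.2 CPM) lay within 1.27-fold between the groups. Of 32 members tested at 8 weeks, 9 were at least 2-fold higher in RXFP2-positive cells, where 11% of all features were, and 2 in MSC-positive cells, where 3.65% were. At 4 weeks 4 of 25 members were higher in RXFP2-positive cells (8.54% of all features) and 2 in MSC-positive cells (4.78%). WNT5A at 4 weeks stood at 125 and 49.8 CPM, a ratio of 2.51 (1.95 to 3.27). RSPO3 at 4 weeks stood at 20.5 CPM in RXFP2-positive cells, from 145 UMIs, and had 1 UMI in the MSC-positive cells. DKK2 had 6 UMIs and none in the 2 groups at 4 weeks, which is too few to compare. The groups differed in depth at 8 weeks, with median UMIs of 5105 in RXFP2-positive and 9039 in MSC-positive cells. The median was 2957 in cells with neither gene and 23065 in cells with both, so the split also follows depth. CPM corrects for depth only on average.

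**Figure D5:**
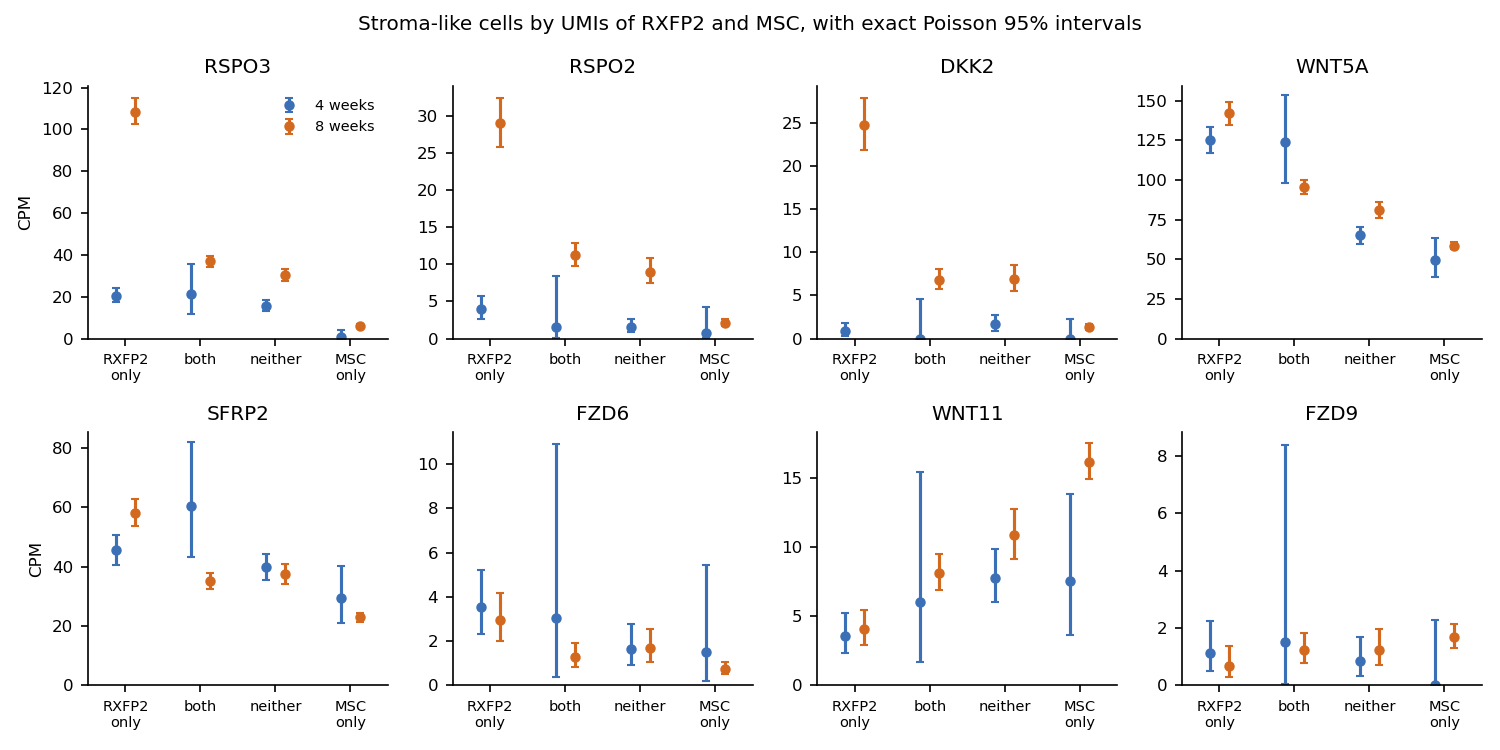
CPM (vertical axis, starting at 0, own scale in each panel) of 8 genes in stroma-like cells split by whether a cell has UMIs of RXFP2, MSC, both or neither (horizontal axis), at 4 weeks in blue and 8 weeks in orange. Points are sums over the cells of 1 library and bars are exact Poisson 95% intervals. RSPO3 at 8 weeks stands at 109 in RXFP2-only cells and 6.12 in MSC-only cells, and WNT11 runs the opposite way.

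A list of 66 other WNT pathway genes was read beside the members, and 65 were found. In germ-cell-like cells 5 of 57 tested were higher at 8 weeks (11.9% of all features) and 6 lower (10% of all features). Those lower included TCF7L1, a transcription factor that partners beta-catenin (449 to 165 CPM), AXIN2, a feedback target (26.3 to 10.2 CPM), and TNFRSF19, a receptor known as a WNT target (189 to 43.6 CPM). The same direction past the limit held for TCF7L1 (47.5 to 21.4 CPM) and TNFRSF19 (68.1 to 27.5 CPM) in Sertoli-like cells. There 2 of 55 genes were higher (6.59% of all features) and 6 lower (13.4%). AXIN2 in Sertoli-like cells stood at 11.9 and 14.0 CPM. The kinase TNIK was lower in Sertoli-like cells (215 to 102 CPM), and KREMEN2, a DKK receptor, was higher (25.3 to 53.2 CPM).

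In endothelial-like cells 5 of 56 pathway genes were higher (8.82% of all features) and 8 lower (13.9%). LEF1, a DNA-binding partner of beta-catenin, rose 2.45-fold (2.28 to 2.64), from 97.4 to 239 CPM. NKD2, an intracellular inhibitor, rose from 9.49 to 45.2 CPM, GPC4, a cell-surface proteoglycan, from 4.50 to 23.8 CPM and PRICKLE2 from 8.66 to 21.6 CPM. The WNT5A receptor ROR2 was lower (40.1 to 11.1 CPM), as were PRICKLE1 of the planar polarity branch (161 to 35.8 CPM) and TNIK (114 to 45.0 CPM). These carry the same difference in endothelial cluster make-up as the members.

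In stroma-like cells 2 of 60 were higher (6.1% of all features) and 8 lower (12.4%). LEF1 went down there, from 22 to 6.32 CPM, as did TBX3, a transcription factor among WNT targets (29.8 to 11.7 CPM). In pericyte- or muscle-like cells 3 of 55 were higher (8.52% of all features) and 7 lower (9.21%). GPC4 stood there at 3.75 and 22.3 CPM and TBX3 at 63.1 and 23.6 CPM. In steroidogenic-like cells 1 of 55 was higher (6.36% of all features) and 9 lower (10.5%), and none of these reached the level set for naming. In macrophage-like cells 5 of 37 were higher (9.45% of all features) and 4 lower (12.2%). LGR5, an R-spondin receptor, stood there at 58.2 and 21.0 CPM and PRICKLE1 at 6.06 and 20.2 CPM.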

How the data were processed

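The matrices hold UMI counts per gene and cell, made by the authors with Cell Ranger. Its version is 7.1.0 per the file headers, while the submitters' processing notes give 2.1.1. A DNBelab droplet kit was used, per the labels' protocols. The genome build, the annotation and the treatment of introns were not given in the sources used here. Depth was 122341903 and 155128130 UMIs.

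Cells with at least 200 genes were kept and scored on 104 marker genes of 12 classes. A score was the mean scaled log level, and a cell joined a class at 0.25 or more if no other score exceeded 0.6 of it. Cells of 2 classes (5.90% and 6.86%) were set aside as possible doublets, no doublet caller was run, and clustering gave 27 Leiden clusters (scanpy 1.11.5, Python 3.11.15). The gate genes, their limits and the cluster comparisons were set after seeing the data, and the members and lists were chosen with earlier results of these data known.

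UMIs were summed per class and library, divided by the class total (CPM), with exact Poisson intervals, exact conditional intervals for ratios, and Clopper-Pearson intervals for shares, all at 95%. UMIs of 1 library share amplification, so intervals cover counting error only. A gene was called at 2-fold with at least 10 UMIs over both libraries, 0.5 UMI being added for the call. Members were named by stage ratio where at least 2-fold changed, with an interval excluding 1 and at least 20 CPM in the higher library, and other pathway genes by the same limits, at most 6 per direction and class. Others named were chosen after their values were seen. The count step was tested on simulated data. Alternatives changed the gates, depth, cells, scaling, count minimum and pseudocount.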

Additional observations from a re-analysis of the deposited data

Results flagged for a closer look

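RSPO3 moved in opposite directions between the libraries in 2 classes. In germ-cell-like cells its log2 ratio of 8 over 4 weeks was 1.05 (7.69 to 16.1 CPM, 51 and 150 UMIs). In endothelial-like cells it was −1.33 (2.40 to 0.856 CPM, 49 and 4 UMIs). The germ-cell-like value was 0.01 with the required marker score doubled and −0.042 with cells classed after thinning. It was 0.90 within the larger shared cluster (282 and 429 cells), and another with 117 and 282 such cells was not read. In the larger shared endothelial cluster RSPO3 had 10 and 4 UMIs, with an interval of the ratio from 0.11 to 1.66. With 1 library per stage the difference between the classes was not tested.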

How the results depend on the processing

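Counts of members past 2-fold were small and moved with the way cells were chosen. The share of all features past the limit was not computed under the other settings. A changed count therefore cannot be told apart from a shift over all features. With the required marker score doubled, lower members numbered 2 in Sertoli-like, 2 in germ-cell-like, 8 in stroma-like and 3 in pericyte- or muscle-like cells, and higher members 1 in steroidogenic-like, 5 in endothelial-like and 2 in stroma-like cells. With cells classed after thinning, Sertoli-like cells had 7 higher and 1 lower, germ-cell-like cells 3 higher and pericyte- or muscle-like cells 2 lower. Without the 6% of cells with most UMIs, Sertoli-like cells had 5 higher and 2 lower, steroidogenic-like cells 7 higher and pericyte- or muscle-like cells 2 lower. With whole clusters as classes, higher members numbered 10 in Sertoli-like, 10 in steroidogenic-like and 17 in macrophage-like cells, and lower members 2 in Sertoli-like, 1 in stroma-like and 5 in pericyte- or muscle-like cells. Centring each class on the median ratio gave 3 lower in Sertoli-like and 1 lower in steroidogenic-like cells.

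A minimum of 50 UMIs left 1 lower in Sertoli-like cells, and 2, 1 and 2 higher in steroidogenic-like, macrophage-like and pericyte- or muscle-like cells. A minimum of 1 UMI gave 7 higher in Sertoli-like cells, 8 higher and 9 lower in steroidogenic-like cells, and 3, 5, 5 and 6 lower in germ-cell-like, macrophage-like, stroma-like and pericyte- or muscle-like cells. Within 1 shared cluster, chosen after seeing the data, lower members numbered 3 in Sertoli-like, 0 in stroma-like and 2 in pericyte- or muscle-like cells, endothelial-like cells had 5 higher, and the Sertoli-like median was 0.40. The sign reversed for DKK2 in endothelial-like cells within the larger shared cluster (−0.53) and for RSPO3 in germ-cell-like cells classed after thinning (−0.042). Of the 21 genes that reached 20 CPM, 12 kept their highest 4-week class with the score doubled and 10 with whole clusters, against 19 to 21 at 8 weeks. Only classes of at least 50 cells were ranked. With the score doubled, distal-tubule-like cells numbered 44 and dropped out. With whole clusters, the cluster that held 156 podocyte-like cells lay below the score limit, and no cluster was named podocyte-like. Genes highest in a class so left out had to change class. What moved the other genes was not tested, and no setting removes the limit of 1 library per stage. Of 447 single ratios recomputed for 45 gene and class pairs, 434 kept their sign and 13 did not, of which 11 were ratios below the 2-fold limit (WNT2B and WNT5B in germ-cell-like, FZD6 in endothelial-like, and RSPO3, SFRP1, SFRP2 and WNT5A in stroma-like cells). No paired analysis was possible because each stage has 1 library.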
